A study of Homo sapiens with 2 samples.

Results

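Domain I is the 5′ segment of 28S rRNA, taken here as the positions from 1 up to, but not including, 436, where expansion segment ES7L about begins. Members were chosen by position alone, as the deposited table numbers 28S rRNA. In this range 365 positions were listed, out of 3357 listed for 28S rRNA and 5047 for 18S and 28S rRNA together. Another 70 are unlisted, and every listed position of the table holds at least 5 reads in at least 1 library. The limits of the domain were not checked against a sequence, and no nucleotide was assigned to a position.

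The study mapped RNA fragments that end in a 2′,3′-cyclic phosphate in A549, an established cell line of human lung carcinoma epithelium. One culture condition was transfection for 1 h with 1 µg/mL poly I:C, a synthetic RNA duplex, carried by Lipofectamine. The mock cells received the Lipofectamine reagent without poly I:C. Each condition was 1 library, so no difference below has a replicate check and no p-value is given. Intervals are exact 95% counting intervals that treat reads as independent, which amplified reads without molecular identifiers are not.

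28S rRNA is the main RNA of the large ribosomal subunit. Its 5′ end pairs with 5.8S rRNA, and both form domain I together, close to the exit of the tunnel through which the new protein leaves. ES7L, which follows, is a long GC-rich insertion that is far shorter in bacteria. Double-stranded RNA in the cytoplasm activates the OAS enzymes, whose product switches on RNase L, an endoribonuclease that cuts single-stranded RNA and leaves cyclic phosphates. Other RNases and the spontaneous hydrolysis of RNA leave the same end. No nuclease was assigned to a position here, since no sample without one is described. Per the labels' protocols, the ends were captured with RtcB, a ligase that joins a cyclic phosphate to a 5′-hydroxyl. 5.8S rRNA, the partner of this segment, was not analysed here.

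Domain I held 187564 reads in the poly I:C library and 211330 reads in the mock library. That was 4.98% of all listed reads with poly I:C (4.96 to 5.00) and 6.86% in mock (6.83 to 6.89). Counts were divided by each library's total of listed reads, 3764202 with poly I:C and 3079346 in mock, and the ratio is poly I:C over mock. The segment's summed reads gave a ratio of 0.726 (0.722 to 0.731), so its share was lower in the poly I:C library. The rest of 28S rRNA stood at 0.871 (0.869 to 0.872), and 18S rRNA at 1.46 (1.46 to 1.47). Within 28S rRNA alone, domain I took 7.59% of the reads with poly I:C and 8.97% in mock. The lower ratio held under all 5 scalings tried, from 0.726 to 0.919.

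A few positions carried most of these reads in both libraries. The same 8 positions were the most frequent of domain I in each library, and 3 positions were enough to reach 50% of the reads in either. The 4 most frequent, positions 409, 206, 245 and 242, held 57.0% of the segment's poly I:C reads (56.7 to 57.2), against 63.2% of its mock reads (63.0 to 63.4). None of the 4 reached a 2-fold difference between the libraries, and all 4 had ratios below 1.

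**Figure D1:**
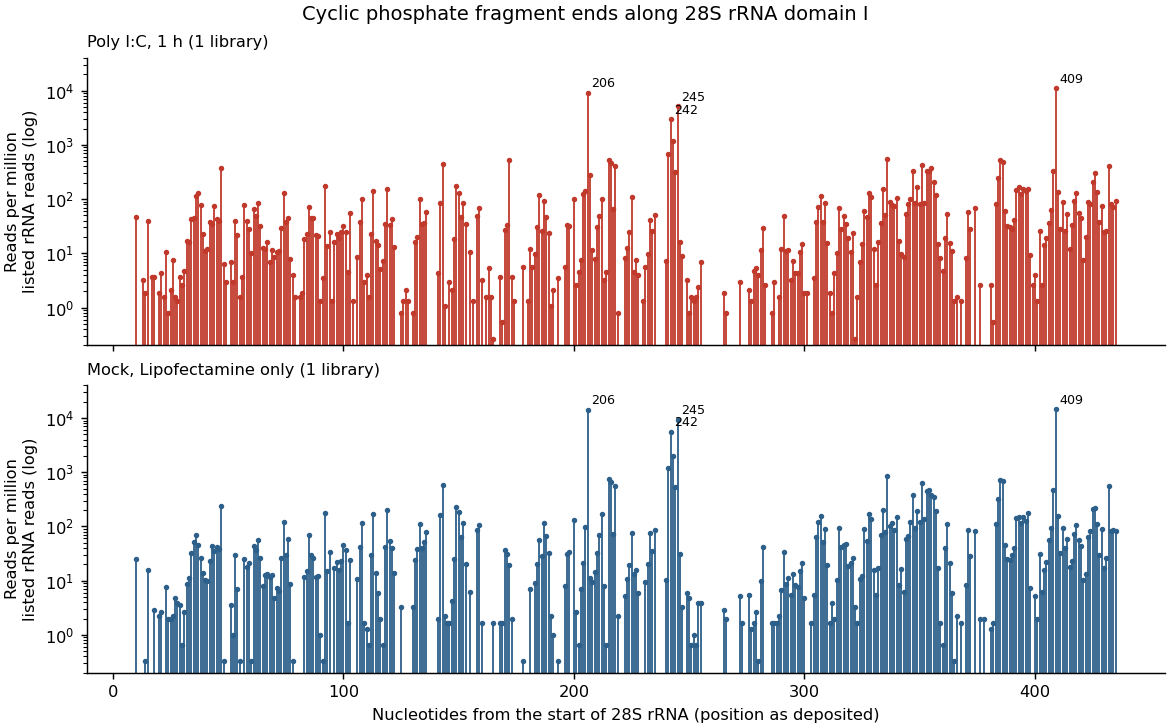
Reads per 1000000 listed rRNA reads (RPM, log axis) at each listed position of domain I, with the poly I:C library in the upper panel and the mock library in the lower one, 1 library each. Positions with 0 reads are not drawn. The 4 labelled positions, 206, 242, 245 and 409, are the tallest in both panels.

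Position 409 was the most frequent site of the segment, with 41548 reads in the poly I:C library and 44335 in mock. Per 1000000 listed reads (RPM) that was 11038 RPM with poly I:C and 14397 RPM in mock, a ratio of 0.767 (0.756 to 0.777). It ranked 9 among all 28S positions in both libraries. The peak was narrow: position 408 held 2.99% as many reads with poly I:C and 3.27% in mock, and position 410 held 1.21% and 1.08%. Both libraries thus showed the same shape around this site.

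Position 206 had 34427 poly I:C reads and 43560 mock reads, a ratio of 0.647 (0.637 to 0.656). It took 18.4% of the segment's poly I:C reads and 20.6% of its mock reads. Its flanks, described below, were not alike in the 2 libraries.

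The third place was a run of 5 adjacent positions, 241 to 245, each with at least 1000 reads over both libraries. Together they held 39123 poly I:C reads and 57193 mock reads, a ratio of 0.560 (0.552 to 0.567). This was 20.9% of the segment's reads with poly I:C and 27.1% in mock. Position 245 led the run with 19646 poly I:C reads and 28526 mock reads, followed by position 242 with 11198 and 17206. Within the run the reads were divided in nearly the same proportions: position 245 took 50.2% with poly I:C and 49.9% in mock, and position 242 took 28.6% and 30.1%. Positions 241, 243 and 244 took 6.65%, 11.4% and 3.08% with poly I:C, and 6.57%, 10.6% and 2.91% in mock. The 5 single ratios lay between 0.532 and 0.606. The run as a whole was lower in the poly I:C library with its internal pattern nearly kept. Position 246, directly after it, had 62 poly I:C reads and 95 mock reads, which is 0.316% and 0.333% of those at 245. Beyond it the few reads differed, with 34 poly I:C reads and 10 mock reads at 247, and 3 and 15 at 250.

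Positions 215 and 336 completed the 8 most frequent sites, besides 241 and 243 of the run. Position 215 had 1993 poly I:C reads and 2354 mock reads, a ratio of 0.693 (0.652 to 0.735). Position 336 had 2081 poly I:C reads and 2649 mock reads, a ratio of 0.643 (0.607 to 0.681). Over the segment without its 4 most frequent positions, 80745 poly I:C reads stood against 77703 mock reads, a ratio of 0.850 (0.842 to 0.858). The rest of 28S rRNA was not trimmed in the same way, so this value has no counterpart there.

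**Figure D2:**
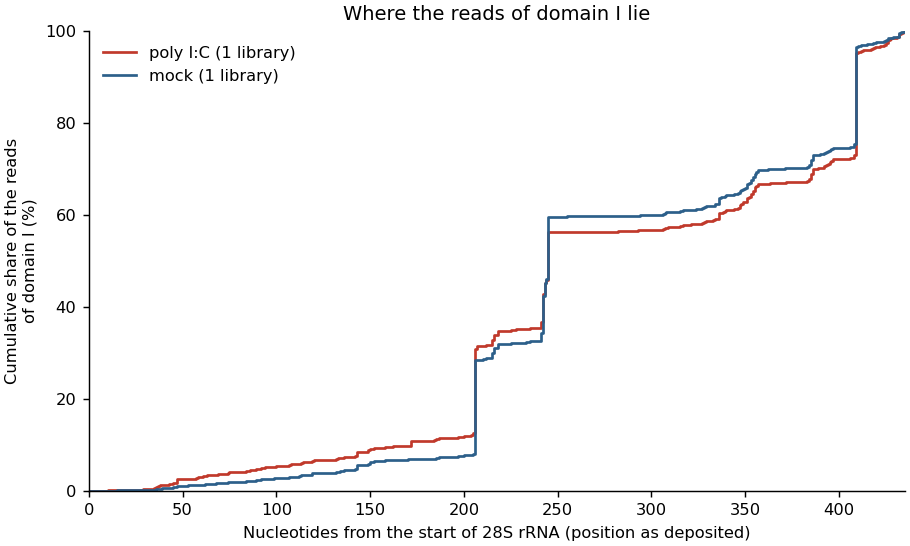
Cumulative share of the reads of domain I in percent, from the first position to the last, for the poly I:C library and the mock library. Both curves climb at position 206, at 241 to 245 and at 409, and both pass 50% at position 245.

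Single positions were compared where both libraries together held at least 100 reads. This left 200 of the 365 listed positions, with 98.4% of the segment's poly I:C reads and 99.0% of its mock reads. By a rule of size, 12 of the 200 (6%) were at least 2-fold higher with poly I:C, against 8.18% of all 2750 compared 18S and 28S positions. Another 3 of the 200 (1.5%) were at least 2-fold lower, against 10.1% of all compared positions. At least 10-fold higher were 2 of the 200 (1%), against 2.84% of all compared positions. None of the 200 was 10-fold lower, nor was any of the 2750 compared positions. Of the 165 positions of domain I under the minimum, 15 (9.09%) had a ratio of at least 5 and 3 (1.82%) a ratio of at most 0.2, against 6.88% and 3.05% of the 2297 such positions of both rRNAs. In 28S rRNA from position 436 on, the 2-fold rule found 9.86% of compared positions higher and 14.1% lower, and 3.97% were at least 10-fold higher. These shares describe 1 library per condition, and their difference was not tested.

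The typical position of domain I had a ratio of 0.874, against 0.753 for the rest of 28S rRNA, 0.858 for 18S rRNA and 0.807 for all compared positions. In 18S rRNA 701 of 1090 compared positions had a ratio below 1, although its summed ratio was 1.46. Division by the totals put the median of all compared positions at -0.31 on the log2 scale, and the segment's median, -0.19, lay 0.11 above it. So 117 of the 200 positions lay above the median of all compared positions, while 73 lay above a ratio of 1. The sum of the reads had a lower ratio than the typical position, and the 4 most frequent sites all lay below the median. The quartiles of the ratios were 0.713 and 1.21 in domain I, and 0.572 and 1.10 in the rest of 28S rRNA. Scaling by the median ratio gave 20 higher positions and 0 lower ones in the segment, against 11.6% higher and 3.27% lower over all compared positions. The direction of a typical position thus depends on the scaling, while its place relative to other positions does not.

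Position 172 had the highest ratio among the compared positions of domain I. It had 1946 reads in the poly I:C library and 59 in mock, or 517 RPM and 19.2 RPM, a ratio of 27.0 (20.8 to 35.6). Among the sites of the segment it ranked 10 by reads with poly I:C. In the authors' deposited table its fold, which is not scaled, is 32.7. The positions beside it did not share this difference: position 171 had 125 poly I:C reads and 97 mock reads, and position 170 had 103 and 115. On the other side, position 173 had 14 poly I:C reads and 6 mock reads. In the poly I:C library position 172 thus stood alone, with 6.42% as many reads at 171 and 0.719% at 173. In mock it was lower than both 170 and 171.

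Positions 204 and 207 flank position 206, a main site of both libraries. Position 207 had 1038 poly I:C reads and 35 mock reads, or 276 RPM and 11.4 RPM, a ratio of 24.3 (17.3 to 35.0). Position 204 had 471 poly I:C reads and 66 mock reads, a ratio of 5.84 (4.50 to 7.67). Their folds in the authors' deposited table are 29.3 and 7.09. Position 206 between them was lower with poly I:C, at 0.647.

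Measured against position 206 itself, position 207 held 3.02% as many reads with poly I:C and 0.0803% in mock. Position 204 held 1.37% with poly I:C and 0.152% in mock, and position 205 held 1.57% and 0.682%. These shares do not depend on the scaling of the libraries. Farther from the peak, reads were few and the ratios differed: position 208 had 44 poly I:C reads and 29 mock reads, and position 209 had 29 and 44. Position 202, 4 nt before the peak, had 17 poly I:C reads and 2 mock reads, a ratio of 6.95 (1.65 to 62.1). These 3 are under the read minimum. Beside the main site 409 the libraries were nearly alike, with 1.21% at position 410 with poly I:C and 1.08% in mock.

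**Figure D3:**
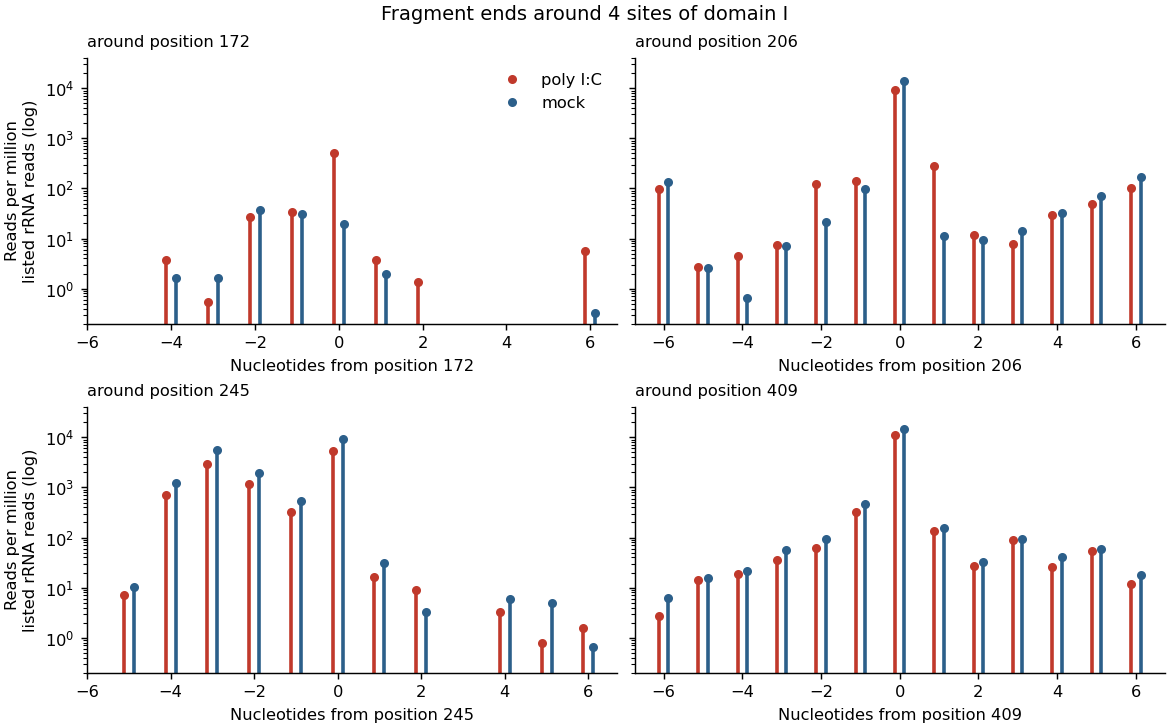
Reads per 1000000 listed rRNA reads (log axis) within 6 nt of positions 172, 206, 245 and 409, poly I:C on the left of each pair and mock on the right. Position 172 and the positions 1 nt after and 2 nt before 206 are high with poly I:C, while the 2 libraries have nearly the same shape from 241 to 246 and around 409. Positions with 0 reads or not listed are not drawn.

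Together the 3 positions 172, 204 and 207 held 3455 poly I:C reads and 160 mock reads, 1.84% and 0.0757% of the segment's reads. Across 28S rRNA they were not at the top: 39 compared positions had a higher ratio than 172, and 42 a higher one than 207. The 2 positions over 10-fold in domain I are 2 of 60 in 28S rRNA and of 78 in the table. They held 0.375% of the poly I:C reads at those 78 positions.

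The other 9 higher positions had ratios from 2.09 to 3.16, and 7 of them lay in the first 100 nt. Position 57 had 297 poly I:C reads and 77 mock reads, a ratio of 3.16 (2.45 to 4.11). Its neighbour 58 had 146 and 56 reads, a ratio of 2.13 (1.56 to 2.96), and position 54 had 81 and 22, a ratio of 3.01 (1.86 to 5.07). Position 37 had 491 poly I:C reads and 137 mock reads, a ratio of 2.93 (2.42 to 3.57), and position 38 had 289 and 81, a ratio of 2.92 (2.27 to 3.78). These formed 2 small groups of adjacent or nearly adjacent positions. All of them were taken by the 2-fold rule, so their shared direction follows from that choice. In the stretches that hold them, 10 of 12 compared positions from 34 to 47 had a ratio above 1, as did 8 of 8 from 54 to 64. Each of these counts includes 3 positions taken by the 2-fold rule, and the stretches were chosen with the values in view. Over all compared 18S and 28S positions, 897 of 2750 had a ratio above 1.

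Position 15 had 150 poly I:C reads and 48 mock reads, a ratio of 2.56 (1.84 to 3.62). Position 44, the closest inside the 2-fold rule, had 278 and 109 reads, a ratio of 2.09 (1.66 to 2.63). Position 10, the first listed position of 28S rRNA, was the closest compared position outside it, with 178 poly I:C reads, 76 mock reads and a ratio of 1.92 (1.46 to 2.54). Positions 103 and 185 were the remaining 2. Position 103 had 211 poly I:C reads and 75 mock reads, a ratio of 2.30 (1.76 to 3.04). Position 185 had 441 poly I:C reads and 171 mock reads, a ratio of 2.11 (1.76 to 2.54). The read minimum counts both libraries, and 3 of the 12 higher positions had at least 100 reads in mock alone. With positions at most 5 nt apart joined, the 12 formed 8 clusters, of which 5 were a single position.

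The 3 lower positions lay beyond position 300 and just passed the rule. Position 362 had 196 poly I:C reads and 339 mock reads, a ratio of 0.473 (0.395 to 0.566). Its neighbour 361 had 73 and 122 reads, a ratio of 0.489 (0.361 to 0.659). Position 320 had 40 poly I:C reads and 66 mock reads, a ratio of 0.496 (0.326 to 0.745). Positions 132, 142 and 333 followed at 0.511, 0.521 and 0.522. The intervals of all 3 lower positions reached above 0.5, and none stayed at or below 0.5 under another scaling.

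**Figure D4:**
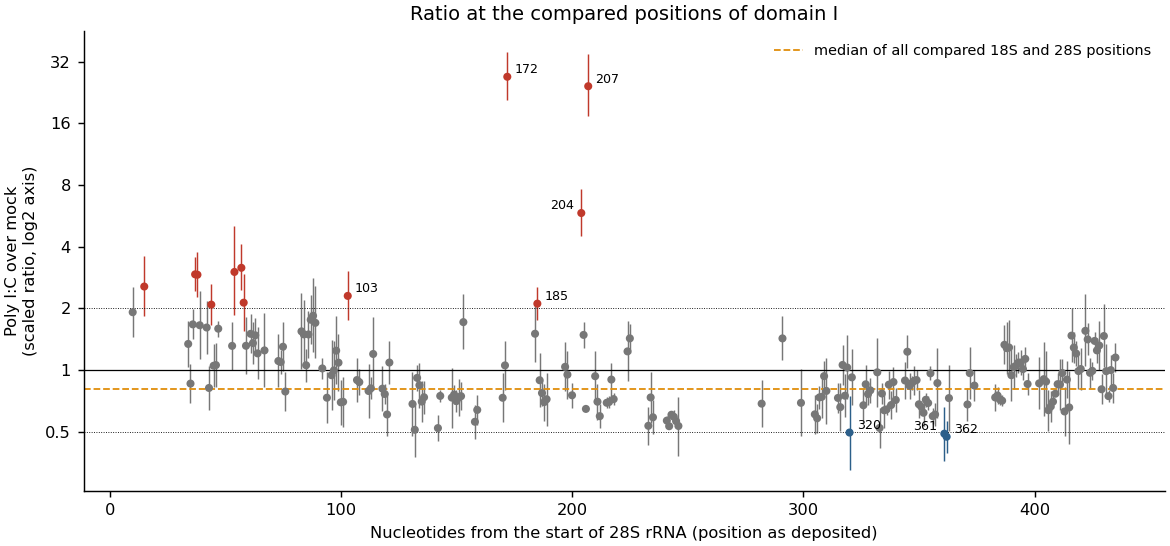
Scaled ratio of poly I:C over mock (log2 axis) at the 200 compared positions of domain I, with 95% counting intervals as bars. Red points are the 12 at least 2-fold higher, blue points the 3 at least 2-fold lower, and those beyond position 100 carry their number. The dashed line is the median of all compared 18S and 28S positions, 0.807.

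The first 100 nt differed from the remainder of the segment, a split chosen after its values were seen. Positions 1 to 100 held 9933 poly I:C reads and 5796 mock reads, a ratio of 1.40 (1.36 to 1.45). The later positions, from 101 on, held 177631 and 205534 reads, a ratio of 0.707 (0.703 to 0.712). As a share of the segment, the first 100 nt took 5.30% with poly I:C (5.19 to 5.40) and 2.74% in mock (2.67 to 2.81). These shares are free of any scaling between the libraries.

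This difference was spread over many positions. Of 42 compared positions in the first 100 nt, 35 had a ratio above 1 and 39 lay above the median of all compared positions. Of 158 beyond it, 38 had a ratio above 1 and 78 lay above that median. Over 18S and 28S rRNA together, 897 of 2750 compared positions had a ratio above 1. The median ratio was 1.35 in the first 100 nt and 0.801 beyond. Higher ratios were not confined to the first 100 nt. In the last 20 nt of domain I the median ratio was 1.15, and 17 of 19 compared positions lay above the median of all compared positions. Across the 200 compared positions of domain I the ratio fell with the total of reads (Spearman's rho = -0.272). Whether depth accounts for the difference between the stretches was not tested. Without the 4 most frequent and the 3 highest positions, the later positions stood at 0.768 (0.760 to 0.776). The ratio of the first 100 nt was then 1.83 times as high, against 1.98 times with all positions and 1.74 times without the 4 most frequent alone. Only the later positions were trimmed, and the first 100 nt kept their own most frequent and highest positions, so the trimmed values are not like for like. The most frequent site of the first 100 nt was position 47, with 1419 poly I:C reads and 729 mock reads, a ratio of 1.59.

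In consecutive windows of 50 nt, positions 1 to 50 had the highest ratio, 1.61 (1.54 to 1.70), on 4693 poly I:C reads and 2379 mock reads. Positions 51 to 100 stood at 1.25 (1.20 to 1.31), on 5240 poly I:C reads and 3417 mock reads. Positions 151 to 200 stood at 1.38 (1.32 to 1.44), of which position 172 held 35.9% of the poly I:C reads. Without position 172, a check added after seeing the data, that window stood at 0.902 (0.859 to 0.947). In that window 6 of 17 compared positions had a ratio above 1, against 12 of 14 and 23 of 28 in the first 2 windows.

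Positions 201 to 250, with the sites 206, 242 and 245, held 83246 poly I:C reads and 109817 mock reads, the lowest ratio of the 9 windows at 0.620 (0.615 to 0.626). Without these 3 sites it was 0.716 (0.702 to 0.731). Positions 101 to 150 stood at 0.786, 301 to 350 at 0.761, 351 to 400 at 0.773 and the last 35 nt, from 401 on, at 0.795. These 4 windows were close to each other, although the last was dominated by position 409, with 79.5% of its poly I:C reads and 82.4% of its mock reads. Without 409 the last window stood at 0.930 (0.904 to 0.956), on 10738 poly I:C reads and 9450 mock reads.

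The window from 251 to 300 was nearly empty in both libraries, with 810 poly I:C reads and 707 mock reads. Its ratio, 0.937 (0.846 to 1.04), had an interval that spans 1. It held 18 unlisted positions of 50 and only 3 compared ones. Among the unlisted positions of the whole segment were 2 runs of 9 in a row, from 1 to 9 and from 256 to 264.

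**Figure D5:**
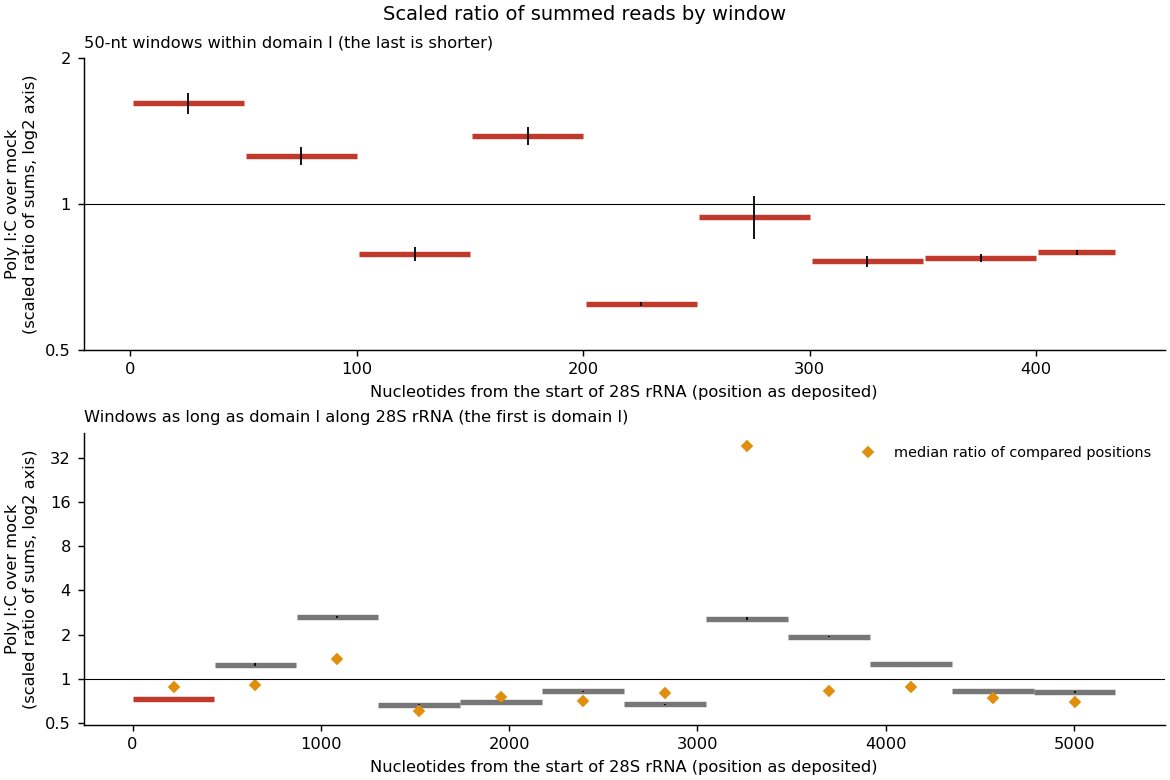
Scaled ratio of summed reads (log2 axis), poly I:C over mock, for 50-nt windows of domain I (upper panel) and, along 28S rRNA, for windows as long as domain I (lower panel, domain I in red). Horizontal bars span the windows, vertical bars are 95% counting intervals and diamonds in the lower panel are median ratios of compared positions. The first 2 windows and 151 to 200 of domain I lie above 1, and its sum lies below 1.

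Over the 365 listed positions the 2 libraries were alike on the scale of log2(RPM + 1), with r = 0.941 (Pearson) and rho = 0.939 (Spearman). This is a description across positions of the same 2 libraries, which are not independent replicates. Both libraries thus placed their ends at largely the same positions of domain I, with the exceptions named above.

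Among 12 consecutive windows of its length along 28S rRNA, domain I ranked 5 by reads in both libraries. By the ratio of summed reads it ranked 9, and by the median ratio of its positions 5, counted from the highest. The next window, positions 436 to 870, where ES7L begins, held far fewer reads, 21727 with poly I:C and 14279 in mock, at 144 listed and 31 compared positions. Its summed ratio was 1.24 (1.22 to 1.27), and 5 of its 31 compared positions were at least 10-fold higher. Domain I had 2 such positions among 200. The windows closest to domain I in listed and compared positions were 1741 to 2175, at a summed ratio of 0.691 with 0 of 178 compared positions over 10-fold, and 1306 to 1740, at 0.666 with 1 of 230. Domain I had a median ratio of 0.874, against 0.745 and 0.598 in these windows.

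At the boundary the reads changed within a few nucleotides. The last listed positions inside were 433 with 308 poly I:C reads and 252 mock reads, 434 with 270 and 270, and the very last with 352 and 250. Just outside, position 436 had 45 poly I:C reads and 29 mock reads, 437 had 2 and 6, and 438 had 5 and 0. The last 50 nt inside held 58226 poly I:C reads and 59087 mock reads, and the first 50 nt outside held 7731 and 9463. The ratio of these stretches was 0.806 (0.797 to 0.815) inside and 0.668 (0.649 to 0.689) outside. Position 409 alone gave 41548 poly I:C reads and 44335 mock reads of the inside stretch, so the contrast in reads rests largely on 1 site. The contrast in ratios does not, since the ratio of 409, 0.767, lay below that of the inside stretch. The last 20 nt inside, without 409, held 7603 and 6076 reads, a ratio of 1.02 (0.990 to 1.06).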

How the data were processed

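The authors deposited 1 table of read counts per position of 18S and 28S rRNA, with 1 column per library, neither normalised nor pooled per the file headers. Their deposited fold, a ratio of poly I:C reads plus 0.5 over mock reads plus 0.5, equalled the value recomputed from the counts with a largest relative deviation of 0, and is quoted only where named. The build hg19 appears in the submitters' processing notes. What aligned and counted the reads, and against which rRNA sequence, was not given in the sources used here. Neither the numbering base (0 or 1) nor the end of a fragment that a position marks is stated, so the table's own numbers are printed. A position stands for all near-identical rRNA repeats, with no genome coordinate.

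Domain I was taken as 28S positions 1 to 435. Counts were scaled to each library's listed 18S and 28S reads, since the depth of the whole libraries is unknown. Ratios and shares carry exact Clopper-Pearson 95% intervals, those of ratios conditional on the sum of both counts. A library with 0 reads was set to a floor of 3 reads. The ratio step was tested on simulated data. Windows run along the 5070 nt that RefSeq (GRCh38.p14) gives for RNA28SN5, and the last one passes that end. Sites were named by rule, namely the 10 highest and 6 lowest ratios among compared positions, the 8 most frequent of each library, the first 3 listed, and the 3 on each side of the segment's end. Any others were picked with their values in view. Members, lists and rules were chosen with earlier results of these data known. Python 3.11.15, scipy 1.17.1 and pandas 2.3.3 were used.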

Additional observations from a re-analysis of the deposited data

How the results depend on the processing

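Scalings tried were 28S reads only, the median ratio, totals without the positions over 10-fold, and no scaling. In that order the summed ratio of domain I was 0.847, 0.900, 0.919 and 0.888, and the median log2 ratio turned positive, to 0.027, 0.12, 0.15 and 0.095. Higher positions numbered 15, 20, 21 and 19 of 200, against 10.3%, 11.6%, 12.2% and 11.2% of all compared positions, and lower ones 0 under each, against 5.02%, 3.27%, 2.91% and 3.78%. The split of calls, 80% higher under the main scaling, became 100%. Windows above 1 numbered 4, 4, 5 and 4. The share of domain I was 7.59% with poly I:C and 8.97% in mock over 28S reads, and 6.22% and 6.87% without positions over 10-fold. The other scalings give no share. The ratio was 0.715 without the most frequent position, 0.871 without the 5 most frequent and 0.702 with the segment ending at 400. Added after seeing the data, it was 0.850 without the 4 most frequent and 0.713 without positions over 5-fold. With 20 reads as the minimum, 30 positions were higher and 12 lower, 1000 reads gave 2 and 0 with a median log2 ratio of -0.42, and no minimum gave 55 and 32 with -0.044. A 4-fold rule gave 3 and 0, intervals wholly beyond 2-fold gave 6 and 0, and summing neighbours gave 20 and 1. The 10 most frequent positions held 65.0% with poly I:C and 72.3% in mock, against 59.3% and 66.1% for 5. Windows above 1 were 20% at 100 nt and 33.3% at 50 nt. A pseudocount of 0.1 gave Pearson's r = 0.878. Of 33 named sites, positions 433 and 434 changed direction under another scaling. For shifts without a stated reason, the cause was not tested. Nucleotides at the positions were not run. No paired analysis was possible because there was 1 library per condition, and leaving out a replicate could not be done. Depth limits the positions with few mock reads, such as 207 with 35.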

Other observations

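Positions under the read minimum were left out of the 2-fold counts. There were 165 in domain I, with 3085 poly I:C reads and 2207 mock reads, 1.64% and 1.04% of the segment's reads. Their summed ratio was 1.14. Position 60 had 38 poly I:C reads and 1 mock read, a ratio of 31.1 with a counting interval from 5.25 to 1260. Position 48, directly after the frequent site 47, had 24 poly I:C reads and 1 mock read, a ratio of 19.6 (3.20 to 807). Position 178 had 21 poly I:C reads and 1 mock read, a ratio of 17.2 (2.76 to 710). Position 182 had 21 poly I:C reads and 0 mock reads, a ratio of 5.73 against a floor of 3 mock reads. Its counting interval starts at 4.26 and has no upper limit. In the other direction, position 322 had 1 poly I:C read and 10 mock reads, a ratio of 0.0818 (0.00189 to 0.575). All 5 were picked with their values in view, and each ratio rests on 0 or 1 reads in 1 library.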
